A study of Mus musculus with 19 samples.

Results

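This account describes 44 mouse genes of mitosis and cytokinesis in regulatory T cells, called Tregs, a CD4 lineage that restrains immune responses. The genes were taken by symbol from the expression tables of the study. All 44 were in the table of sorted Tregs, which lists 14839 genes, and 43 were in the table of stimulated Tregs, which lists 14310. Birc5 was not analysed here in stimulated Tregs.

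RNA was sequenced in 19 libraries of YFP-positive Tregs from C57Bl/6 mice in which Foxp3, the gene of the Treg lineage factor, drives Cre recombinase and yellow fluorescent protein. This Foxp3-driven Cre was in every group, wild type (WT) included. The p65-deficient and c-Rel-deficient mice also carried floxed alleles of p65 (Rela) or c-Rel (Rel), subunits of the transcription factor NF-kB, so that deletion was directed to Foxp3-expressing cells. The stimulated set held 3 groups of 2 libraries each. They were WT Tregs with pentoxifylline at 500 ug/mL, c-Rel-deficient Tregs, and WT Tregs with its water diluent. Pentoxifylline is a phosphodiesterase inhibitor, and the labels do not say whether the c-Rel-deficient cultures received water. Cells of all 3 groups had been cultured for 16 hours with antibodies to CD3 (5 ug/mL) and CD28 (1 ug/mL) plus IL-2 (10 ng/mL), a T cell growth factor. The sorted set held uncultured Tregs from spleen and lymph nodes, as activated Tregs (aTreg, sorted as CD44 high) and resting Tregs (rTreg, sorted as CD44 low). There were 2 p65-deficient, 2 c-Rel-deficient and 3 WT aTreg libraries, and 2 p65-deficient, 2 c-Rel-deficient and 2 WT rTreg libraries. The labels give no age and do not say that replicates came from separate animals, so the p-values below measure only the spread between these samples, which may be technical.

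Mitosis is driven by cyclin-dependent kinase 1 with its A and B cyclins, which other kinases such as Polo-like kinase and the Aurora kinases assist. Chromosomes attach to spindle microtubules through kinetochores, a checkpoint holds the cell until attachment is complete, and the anaphase-promoting complex then releases the sister chromatids before cytokinesis divides the cell. Most of these genes are transcribed late in the cell cycle, through promoters that often carry a CHR element and CCAAT boxes bound by the MuvB complex and NF-Y, whereas genes of DNA replication peak earlier and are classical E2F targets. Tregs divide after receptor stimulation, and activated Tregs hold more dividing cells than resting ones.

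The promoters of the 4 genes called with pentoxifylline against water are shown first, with those of Ccnb2 and Pttg1. In stimulated c-Rel-deficient Tregs Ccnb2 had the lowest difference of the members, and Pttg1 ran against the other genes between replicates. Each window runs from 250 bases before to 50 bases after the RefSeq start site, in the GRCm38.p6 build, read 5′ to 3′ on the gene's strand. Capitals mark CHR elements (TTTGAA or TTCGAA) and CCAAT boxes (CCAAT) on either strand. The windows are chr5:30666636-30666935 on the plus strand for Cenpa, chr17:71526808-71527107 on the minus strand for Ndc80, chr9:122950831-122951130 on the plus strand for Kif15, chr7:131560120-131560419 on the plus strand for 1 of 2 start sites of Bub3, chr9:70421505-70421804 on the minus strand for Ccnb2 and chr11:43425932-43426231 on the minus strand for Pttg1.
Cenpa: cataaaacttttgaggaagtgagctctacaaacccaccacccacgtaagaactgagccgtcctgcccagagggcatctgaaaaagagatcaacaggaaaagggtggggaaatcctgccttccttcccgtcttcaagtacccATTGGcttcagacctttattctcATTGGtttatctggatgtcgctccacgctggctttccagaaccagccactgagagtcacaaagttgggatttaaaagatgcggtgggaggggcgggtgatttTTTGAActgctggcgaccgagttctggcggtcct
Ndc80: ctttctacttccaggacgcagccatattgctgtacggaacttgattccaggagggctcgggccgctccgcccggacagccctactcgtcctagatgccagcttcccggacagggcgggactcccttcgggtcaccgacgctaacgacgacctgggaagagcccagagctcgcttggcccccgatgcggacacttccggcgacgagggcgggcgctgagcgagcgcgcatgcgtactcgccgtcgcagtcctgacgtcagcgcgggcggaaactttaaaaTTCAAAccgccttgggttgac
Kif15: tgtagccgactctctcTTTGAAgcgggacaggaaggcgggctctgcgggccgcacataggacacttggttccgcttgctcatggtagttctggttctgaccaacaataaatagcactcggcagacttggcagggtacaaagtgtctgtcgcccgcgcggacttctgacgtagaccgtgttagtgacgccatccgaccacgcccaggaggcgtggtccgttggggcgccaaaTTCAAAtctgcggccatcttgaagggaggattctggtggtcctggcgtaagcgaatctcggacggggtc
Bub3: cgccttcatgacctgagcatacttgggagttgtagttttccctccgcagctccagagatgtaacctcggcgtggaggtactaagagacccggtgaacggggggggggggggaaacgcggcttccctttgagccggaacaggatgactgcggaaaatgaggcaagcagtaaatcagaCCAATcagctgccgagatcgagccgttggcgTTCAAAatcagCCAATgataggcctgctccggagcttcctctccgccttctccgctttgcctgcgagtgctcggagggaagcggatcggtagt
Ccnb2: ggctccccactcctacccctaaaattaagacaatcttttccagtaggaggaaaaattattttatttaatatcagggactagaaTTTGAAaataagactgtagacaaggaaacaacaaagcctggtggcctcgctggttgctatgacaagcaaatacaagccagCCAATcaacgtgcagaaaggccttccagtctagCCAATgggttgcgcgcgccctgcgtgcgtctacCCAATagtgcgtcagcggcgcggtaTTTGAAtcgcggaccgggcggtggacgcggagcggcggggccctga
Pttg1: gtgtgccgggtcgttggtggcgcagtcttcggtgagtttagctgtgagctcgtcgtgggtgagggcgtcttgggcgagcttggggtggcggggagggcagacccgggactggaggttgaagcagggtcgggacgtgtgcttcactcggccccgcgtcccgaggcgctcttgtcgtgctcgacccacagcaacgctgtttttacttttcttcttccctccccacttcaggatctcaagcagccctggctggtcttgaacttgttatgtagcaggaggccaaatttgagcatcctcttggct

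A RefSeq promoter window was found for 38 of the 44 genes, 3 of which had 2 windows. Both strands were searched for the CHR element, the CCAAT box, E2F motifs (TTTCCCGC, TTTGGCGC or TTCCCGCC) and the NF-kB consensus. A CHR element within 50 bases of the start site was present in 28 of the 38 genes (73.68%), against 6.12% of all 27025 genes with a window. A CCAAT box was present in 28 (73.68%, against 41.1% of all genes), and 2 or more boxes in 20 (52.63%, against 13.3%). Both a near CHR element and a CCAAT box were present in 25 (65.79%, against 2.57%). Among the matches of these genes, 1 CHR element overlapped a CCAAT box. The E2F letters occurred in 1 gene, Kif15 (2.63%, against 3.69% of all genes). The NF-kB consensus occurred in 2, Birc5 and Kif23 (5.26%, against 5.14%). In the sequences above, Ccnb2 carries 2 CHR elements and 3 CCAAT boxes, Cenpa 1 and 2, and Bub3 1 and 2. Ndc80 has 1 CHR element and no CCAAT box, Kif15 has 2 and none, and Pttg1 has neither. These matches describe letters in the windows and were not tested as sites.

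**Figure D1:**
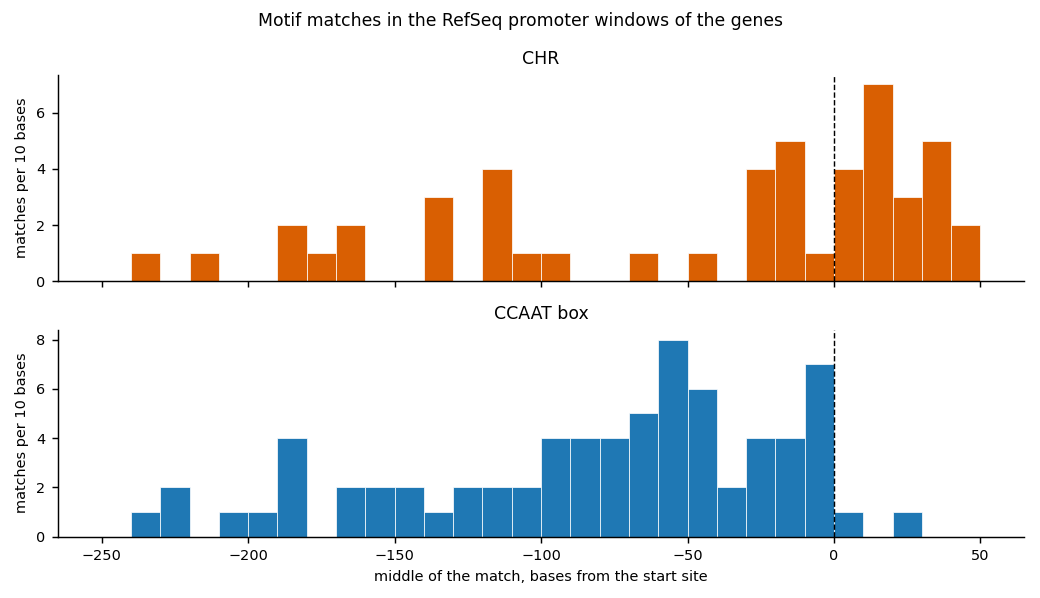
Number of CHR elements (top) and CCAAT boxes (bottom) per 10 bases, by distance of the middle of the match from the RefSeq start site, in the promoter windows of the 38 genes. The 3 genes with 2 windows are counted in both, and TTCGAA, which reads the same on both strands, is counted once on each strand. CHR elements gather around the start site, shown as a dashed line, and most CCAAT boxes lie before it.

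Values are RPKM, reads scaled to gene length and to the reads of the library. Differences are between group means of log2(RPKM + 0.5), a scale on which low genes change less than in RPKM. They were tested across all genes of a set in limma with Benjamini-Hochberg adjustment at a threshold of 0.05. They were set against 9945 tested genes in the stimulated set and 10656 in the sorted set, and all members listed in a set's table passed the filter on low values. Relative depth in the stimulated set, read from the steps between low values, was 0.682 to 1 of that of water replicate 1, and the depth of the sorted libraries is unknown. Per library, 9469 to 9751 genes stood at 1 RPKM or more after stimulation, and 9765 to 10317 after sorting. In bulk RNA, fewer dividing cells and less of a transcript per cell cannot be told apart.

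The targeted gene was read first. Rel lies on the minus strand of chromosome 11, from 23736847 to 23770970 in GRCm38. It was 2.44 and 24.96 RPKM in replicates 1 and 2 of the stimulated Tregs labelled c-Rel-deficient, against 55.1 and 55.8 in WT with water. Replicate 2 of that group held more Rel than replicate 1. The median of each stimulated c-Rel comparison is given below with and without it, as are the called members of c-Rel-deficient against water. The other values of those comparisons include both libraries. In sorted cells Rel was 1.56 and 3.01 in c-Rel-deficient and 18.6, 21.3 and 22 in WT aTregs, and 5.37 and 1.39 in c-Rel-deficient and 10.9 and 20.5 in WT rTregs. Rela was 46.8 and 56.1 in p65-deficient and 68.3, 62.3 and 64.2 in WT aTregs, and 69.4 and 59.9 against 71.5 and 69.0 in rTregs, values over the whole gene, in which a deleted segment cannot be seen. Foxp3 was at least 28.1 RPKM in every library, and the 8 Treg and CD4 T cell markers were detected in both sets.

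**Figure D2:**
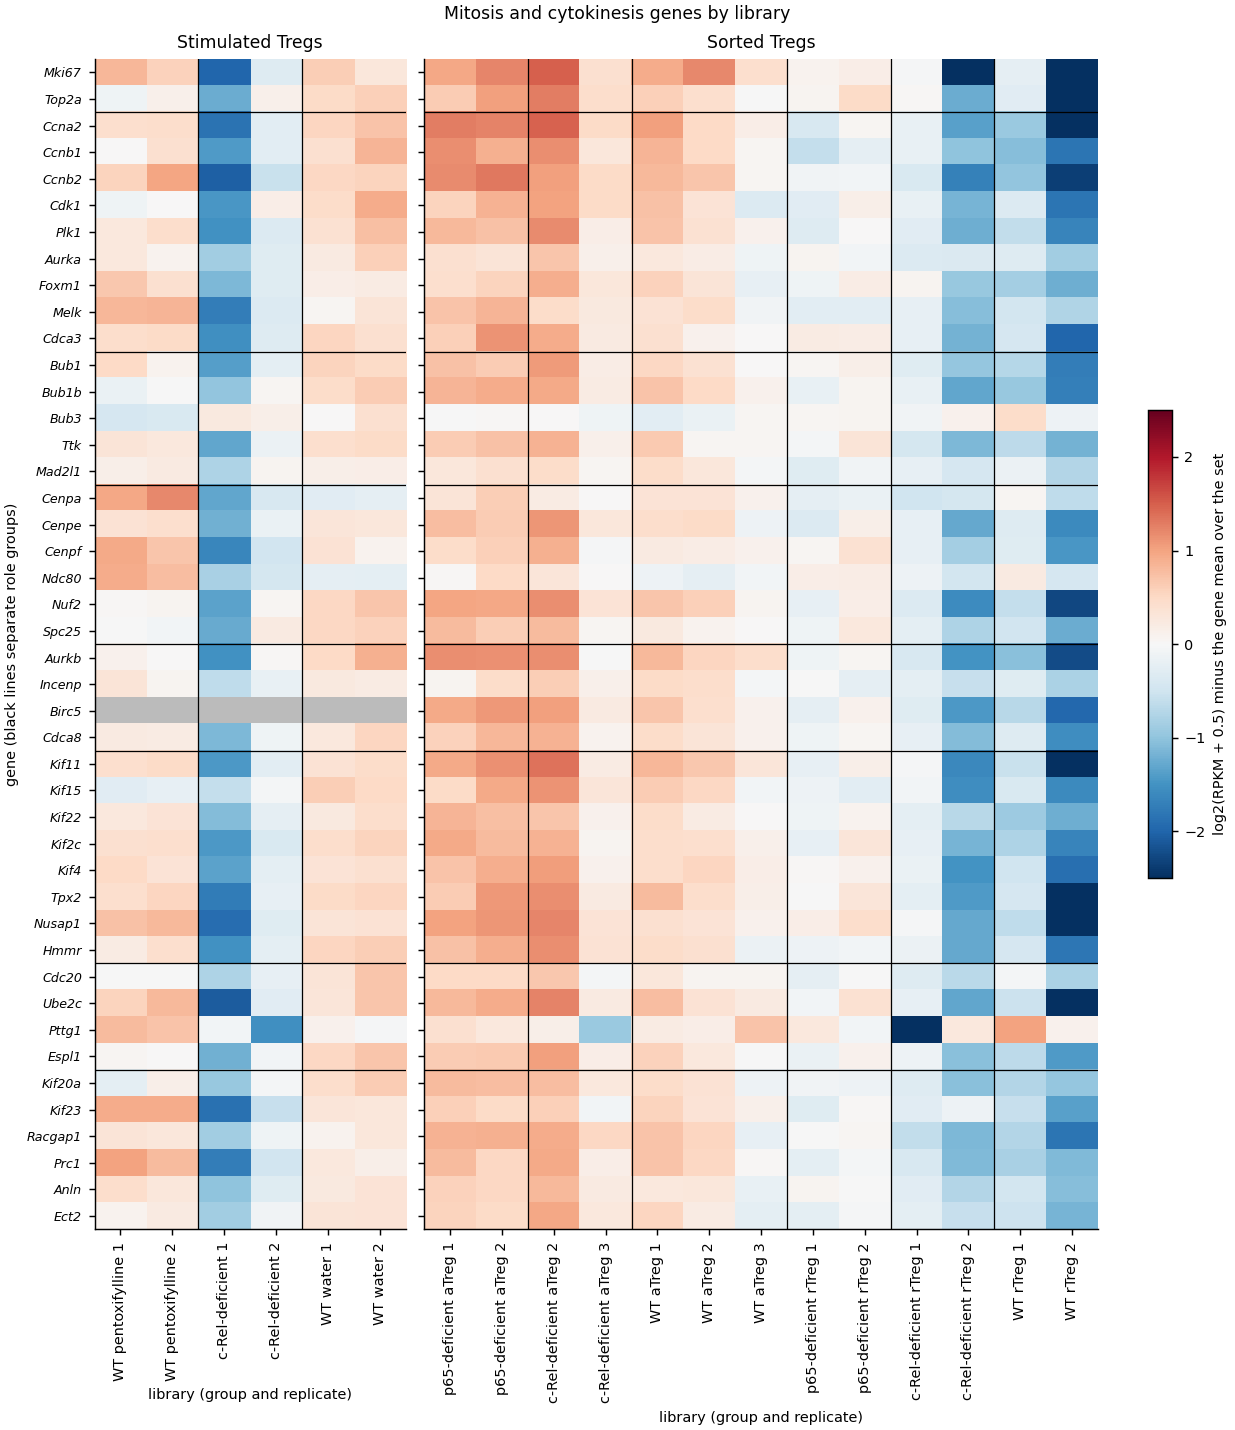
Level of each gene in each library as log2(RPKM + 0.5) minus the mean of that gene over the libraries of its set, stimulated on the left and sorted on the right, with genes ordered by role. The library c-Rel-deficient 1 is low for nearly every gene in the stimulated set, as is WT rTreg 2 in the sorted set, Bub3 is nearly flat, and Pttg1 is low in 1 library of each c-Rel-deficient group; Birc5 is grey in the stimulated set.

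In stimulated WT Tregs, few of these genes were called with pentoxifylline against water when all 3 groups were fitted together. The median log2 difference of the 43 genes was -0.04, against 0.00 over all tested genes. Of the 43 genes, 2 rose (Cenpa and Ndc80) and 2 fell (Kif15 and Bub3), while limma called 43.5% of all tested genes, 19.6% higher and 23.9% lower. In that fit the share of members called, 4 of 43, lies below that background. It was higher with the pentoxifylline and water libraries fitted alone, as given below. An unadjusted p under 0.05 was reached by 5 members and 52.8% of all tested genes. Differences were above 0 for 18 members (50.1% of all genes) and below 0 for 25 (49.9%). The same 4 directions are called in the authors' deposited table after adjustment of its p-values, which in addition calls Top2a (-0.62) and Cdk1 (-0.82) lower. It calls 9.77% of its genes higher and 12.9% lower.

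Both genes that rose belong to the centromere and kinetochore. Cenpa encodes the histone H3 variant that marks centromeres. It was 61.6 and 72.5 RPKM with pentoxifylline, against 25.4 and 26.7 with water, a log2 difference of 1.34 (SE 0.27, adjusted p = 0.0072). Both pentoxifylline libraries were above every other library of the set. Ndc80, a subunit of the complex that binds microtubules at the kinetochore, was 16.8 and 15 against 7.29 and 7.09 (1.09, SE 0.18, adjusted p = 0.0031). Its partners in the same complex did not pass and had differences of the opposite sign. Nuf2 was 4.38 and 4.51 with pentoxifylline and 6.38 and 7.25 with water (-0.56, SE 0.40, adjusted p = 0.29). Spc25 was 3.52 and 3.34 with pentoxifylline and 5.24 and 5.52 with water (-0.58, SE 0.42, adjusted p = 0.30). Cenpf, a kinetochore-associated protein, was 4.6 and 3.79 against 2.91 and 2.33 (0.59, adjusted p = 0.23).

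Kif15, a motor that helps to keep spindle poles apart, was 3.78 and 3.97 RPKM with pentoxifylline, against 7.43 and 6.84 with water (-0.80, SE 0.22, adjusted p = 0.021). Bub3, a checkpoint protein that binds Bub1 and BubR1, was 49.8 and 51.8 against 67.4 and 88.9 (-0.60, SE 0.16, adjusted p = 0.0205). The groups did not overlap for any of these 4 genes. That holds for 12 of 43 members in the higher and 17 in the lower direction, against 37.2% and 38.3% of all tested genes.

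Common markers of proliferation did not pass in this comparison with all 3 groups in 1 fit. Mki67, the gene of the proliferation antigen Ki-67, was 25.2 and 21.1 RPKM with pentoxifylline and 21.5 and 17.0 with water, and the groups overlapped (0.27, SE 0.46, adjusted p = 0.67). Top2a, the topoisomerase that untangles replicated DNA, was 25.8 and 30.4 against 38.8 and 42.4 (-0.53, SE 0.38, adjusted p = 0.295). Cdk1 was 7.37 and 8.08 against 11.3 and 15.7 (-0.75, SE 0.46, adjusted p = 0.22), and Foxm1, a transcription factor of late cell cycle genes, 8.96 and 7.34 against 6.13 and 6.30 (0.36, adjusted p = 0.32). Of these 4, only the Mki67 libraries overlapped between the groups. Bub1b, which encodes the checkpoint kinase BubR1, was 7.66 and 8.59 against 12.1 and 13.7 (-0.63, adjusted p = 0.13). Aurkb, the kinase of the chromosomal passenger complex, was 9.48 and 8.80 against 12.6 and 16.6 (-0.64, adjusted p = 0.27). The groups overlapped for Plk1 and Ccnb1, which encode Polo-like kinase 1 and cyclin B1. Plk1 was 9.76 and 11.1 against 10.7 and 13.9, and Ccnb1 3.61 and 4.92 against 4.91 and 6.90. Among role groups the medians ran from -0.21 for the spindle checkpoint to 0.34 for kinetochore and centromere.

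**Figure D3:**
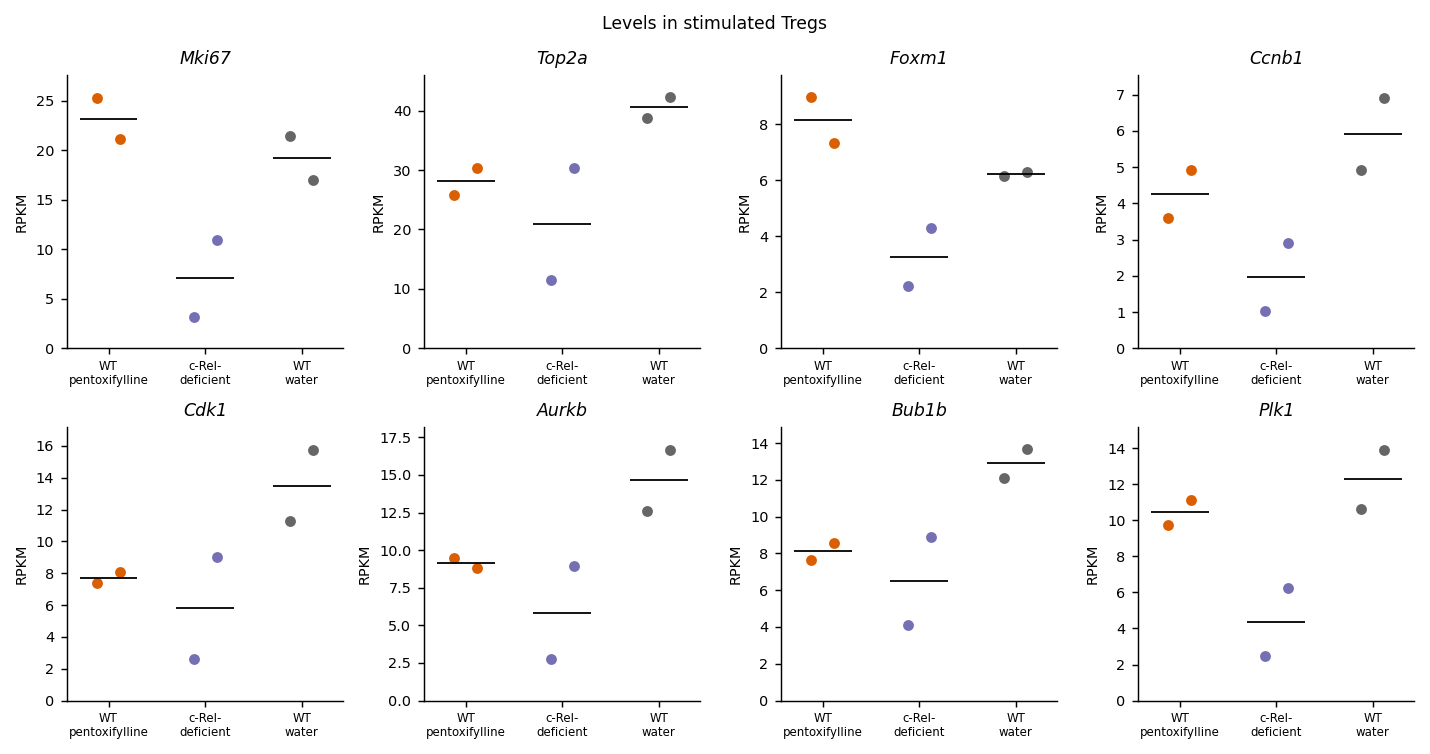
RPKM of 8 genes in the stimulated libraries, with points for libraries and lines for group means, and groups from left to right WT with pentoxifylline, c-Rel-deficient and WT with water. For each gene 1 of the c-Rel-deficient libraries is the lowest of the 6, while pentoxifylline and water libraries lie closer together and the order of those groups differs between genes.

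Genes of DNA replication and S phase were lower with the drug. The counts of each list below stand against 19.6% of all tested genes called higher and 23.9% called lower in this comparison. Of 43 tested members of that list, 37 fell and 0 rose, with a median of -1.34. Gins1, a subunit of the replicative helicase, was 1.07 and 2.60 RPKM with pentoxifylline, against 14.3 and 18.2 with water (-2.91, SE 0.31, adjusted p = 0.00086). Tyms, which makes thymidylate, was 1.30 and 1.69 against 7.40 and 10.8 (-2.25, SE 0.38, adjusted p = 0.0036). Of 55 tested other mitotic genes, 5 rose and 4 fell, with a median of -0.12. Smc4, a condensin subunit, rose by 1.18 (SE 0.19, adjusted p = 0.0033), and Trip13, which disassembles checkpoint complexes, fell by 1.59 (SE 0.26, adjusted p = 0.0035). Of 15 tested subunits and partners of the anaphase-promoting complex 3 rose and 2 fell, with the largest values for Anapc1 (0.82) and Anapc13 (-1.15). Of 19 tested MuvB, DREAM and cell cycle transcription factor genes 4 rose and 7 fell. The falls included E2f1, an activating E2F (-1.73, SE 0.27, adjusted p = 0.0028), and its partner Tfdp1 (-2.37, SE 0.24, adjusted p = 0.00079). Of 12 tested G1 cyclins and CDK inhibitors 4 rose and 3 fell. Cdk4, the kinase of D-type cyclins, was 46.2 and 52.7 RPKM against 149 and 198 (-1.79, adjusted p = 0.00073), and Cdkn1b, which encodes the inhibitor p27, was 237 and 195 against 89.4 and 55.1 (1.61, adjusted p = 0.003).

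With the 4 libraries of pentoxifylline and water fitted alone, 6 of 43 members rose and 10 fell, and 4271 of 9945 genes were called in all. The fits without 1 library that follow kept all 3 groups, and with no library left out only Kif15 and Bub3 were called lower there. Cenpa and Ndc80 stayed called without any 1 of those 4 libraries. No member was called lower without pentoxifylline replicate 1, pentoxifylline replicate 2 or water replicate 2, and Bub3 alone was without water replicate 1. NK and cytotoxic cell markers, some of which effector Tregs also express, summed to 9.06 to 10.7 RPKM with pentoxifylline and 37.9 to 59.1 with water (4 of 6 listed in the table reached 1 RPKM), and their part in the result was not tested.

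In stimulated Tregs labelled c-Rel-deficient, all 43 genes had a log2 difference below 0 from WT with water, as had 40.2% of all tested genes, the other 59.8% being above 0. The median log2 difference was -1.17, a fold of 0.444, against 0.06 over all tested genes. In limma 0 genes of the 9945 passed, so 0% was called and no member. At an unadjusted p under 0.05 stood 38 of 43 members and 791 genes in all, or 7.95%. The libraries of 42 members lay below both water libraries, which held for 16.3% of all tested genes, and Bub3 was the exception. No member lay above both water libraries, where 24.2% of all tested genes did. The authors' deposited table calls 32 of 43 members lower and 0 higher, and 1.66% of its genes lower and 0.483% higher.

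The deficit was not equal in the 2 libraries. Replicate 1 was lower than replicate 2 for 41 of 43 members, and was the lowest of the 6 libraries of the set for 41. Against the water library of the same number, the median difference was -1.72 in replicate 1 (42 of 43 below 0) and -0.65 in replicate 2 (43 of 43). Without c-Rel-deficient replicate 2, the library with the higher Rel, limma called 38 of 43 members lower with a median of -1.80, among 284 called genes. Without replicate 1 it called 0 members, with a median of -0.61. In those fits the remaining library was assumed to vary like the other groups.

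The lowest limma values were those of Ccnb2 (-1.83), Ccna2 (-1.69) and Ube2c (-1.68). Ccnb2, which encodes cyclin B2, was 1.81 and 5.98 RPKM in c-Rel-deficient Tregs, against 13.1 and 13.4 with water (-1.83, SE 0.43, adjusted p = 0.42 in limma; -2.0, adjusted p = 7.5e-07 in the authors' deposited table). Ccna2, the gene of cyclin A2, was 2.68 and 9.0 against 16.2 and 18.2 (-1.69, SE 0.43). Cdk1 was 2.62 and 9.05 against 11.3 and 15.7, Ccnb1 1.04 and 2.91 against 4.91 and 6.90, and Plk1 2.48 and 6.24 against 10.7 and 13.9. In each of these genes replicate 1 was the lower library by more than 2 times, and both libraries were below water. Foxm1 was 2.22 and 4.31 against 6.13 and 6.30 (-0.89, SE 0.27).

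Mki67 was 3.14 and 11 RPKM in c-Rel-deficient Tregs, against 21.5 and 17.0 with water (-1.60, SE 0.46), and Top2a 11.5 and 30.4 against 38.8 and 42.4 (-1.09, SE 0.38). Ube2c, the E2 enzyme of the anaphase-promoting complex, was 5.95 and 21.9 against 33.3 and 43.3 (-1.68, SE 0.50). Kif23, a motor of the central spindle, was 1.17 and 3.58 against 7.0 and 6.90 (-1.52, SE 0.37). Both c-Rel-deficient libraries were below both water libraries for all 4 genes. Aurkb was 2.76 and 8.92 against 12.6 and 16.6 (-1.44, SE 0.44), and Bub1b 4.08 and 8.91 against 12.1 and 13.7 (-1.03, SE 0.31). All 8 role groups had medians between -1.39, for mitotic entry, and -0.99, for central spindle and cytokinesis.

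Bub3 stood close to 0, and Ndc80, Mad2l1 and Cenpa fell by less than the median of the members. Bub3 was 80.1 and 74.2 RPKM in c-Rel-deficient Tregs and 67.4 and 88.9 with water, a difference of -0.01 (SE 0.16). Ndc80 differed by -0.39, Mad2l1, a checkpoint protein that inhibits Cdc20, by -0.51 and Cenpa by -0.59. Pttg1, which encodes securin, the inhibitor of separase, ran against the other genes between replicates: it was 26.9 in replicate 1 and 9.34 in replicate 2, against 30.4 and 27.7 with water.

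In the same comparison the DNA replication and S phase list had a median of -0.22, with 36 of 43 below 0, and the other mitotic genes a median of -0.80, with 50 of 55 below 0. The anaphase-promoting complex subunits had a median of 0.05, the MuvB, DREAM and cell cycle factors one of -0.08, and the G1 cyclins and CDK inhibitors one of -0.09; limma called 0 in each. The 28 genes with a CHR element within 50 bases of the start had a median of -1.13. The 9 tested genes with a window and none that near had one of -1.25, and this split was not tested. Myeloid markers summed to 2.73 to 3.26 RPKM in the c-Rel-deficient libraries and 6.07 to 20.6 with water, with 7 of the 8 listed, among them Lyz2, Itgam and Csf1r, at or under 0.1 RPKM in both c-Rel-deficient libraries. B cell markers summed to 5.24 to 5.44 against 7.76 to 10.7, with Ms4a1, Pax5 and Ebf1 among those at or under 0.1 in both c-Rel-deficient libraries. Ebf1, and Cd14 and Emr1 among the myeloid markers, were at or under 0.1 in both water libraries as well. The part of the myeloid and B cell markers in the result was not tested.

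With pentoxifylline these genes were higher than in c-Rel-deficient Tregs. Of 43 members 28 were higher and 1, Bub3, was lower, where limma called 48.4% of all tested genes, 21.6% higher and 26.8% lower. The median was 1.07, against 0.00 over all tested genes. Both pentoxifylline libraries were above both c-Rel-deficient libraries for 34 members and below them for 1, against 38% and 39.5% of all tested genes. Differences were above 0 for 42 members and 50% of all genes, and 31 members and 56.5% of all genes had an unadjusted p under 0.05. The comparison shares each of its groups with one of the comparisons above. Without c-Rel-deficient replicate 2 the median was 1.59, and without replicate 1 it was 0.56. Fewer members were called without either pentoxifylline library or without c-Rel-deficient replicate 1, and more without c-Rel-deficient replicate 2. In each of these fits fewer genes were called in all. NK and cytotoxic cell markers summed to 9.06 to 10.7 RPKM with pentoxifylline and 34.99 to 37.5 in c-Rel-deficient Tregs, and myeloid markers to 6.06 to 15.9 and 2.73 to 3.26. Their part in the result was not tested.

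Kif23 was 11 and 11.1 RPKM with pentoxifylline, against 1.17 and 3.58 in c-Rel-deficient Tregs (2.15, SE 0.37, adjusted p = 0.0033). Prc1, which bundles microtubules of the central spindle, was 13.2 and 11.4 against 1.57 and 4.41 (2.01, SE 0.36, adjusted p = 0.004). Ccnb2 was 13.5 and 18.2 against 1.81 and 5.98 (2.06, SE 0.43), and Melk, a late cell cycle kinase, 9.31 and 9.5 against 1.17 and 3.88 (1.88, SE 0.40). The pentoxifylline libraries were above both c-Rel-deficient libraries in all 4 genes.

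The other role groups had the same direction. Cenpa was 61.6 and 72.5 RPKM against 12.4 and 23.6 (1.93, SE 0.27, adjusted p = 0.0014), and Cenpf 4.6 and 3.79 against 0.359 and 1.41 (1.87, SE 0.37). Nusap1, a microtubule-bundling protein of the spindle, was 9.59 and 10.1 against 1.13 and 4.40 (1.87, SE 0.44), and Tpx2, which activates Aurora A, 8.16 and 8.84 against 1.43 and 5.12 (1.45, SE 0.43). Mki67 differed by 1.87 (SE 0.46, adjusted p = 0.014). Ube2c differed by 1.86, Pttg1 by 1.55, Bub1 by 1.11, Ttk by 1.02 and Incenp, the scaffold of the passenger complex, by 0.61, all called. Among the 14 members not called were Top2a (0.57), Cdk1 (0.59), Aurkb (0.80), Bub1b (0.39), Nuf2 (0.69), Spc25 (0.48) and Kif15 (0.08), for which the libraries of the 2 groups overlapped. The S phase list ran the other way, with 29 of 43 lower, 0 higher and a median of -0.84. Mcm2, a subunit of the replicative helicase, was 24.3 and 21.1 RPKM with pentoxifylline, against 93.1 and 91.2 in c-Rel-deficient Tregs (-2.0, SE 0.22, adjusted p = 0.00063). Of 55 other mitotic genes 22 were higher and 2 lower, with a median of 0.52. Limma called 21.6% of all tested genes higher and 26.8% lower in this comparison.

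**Figure D4:**
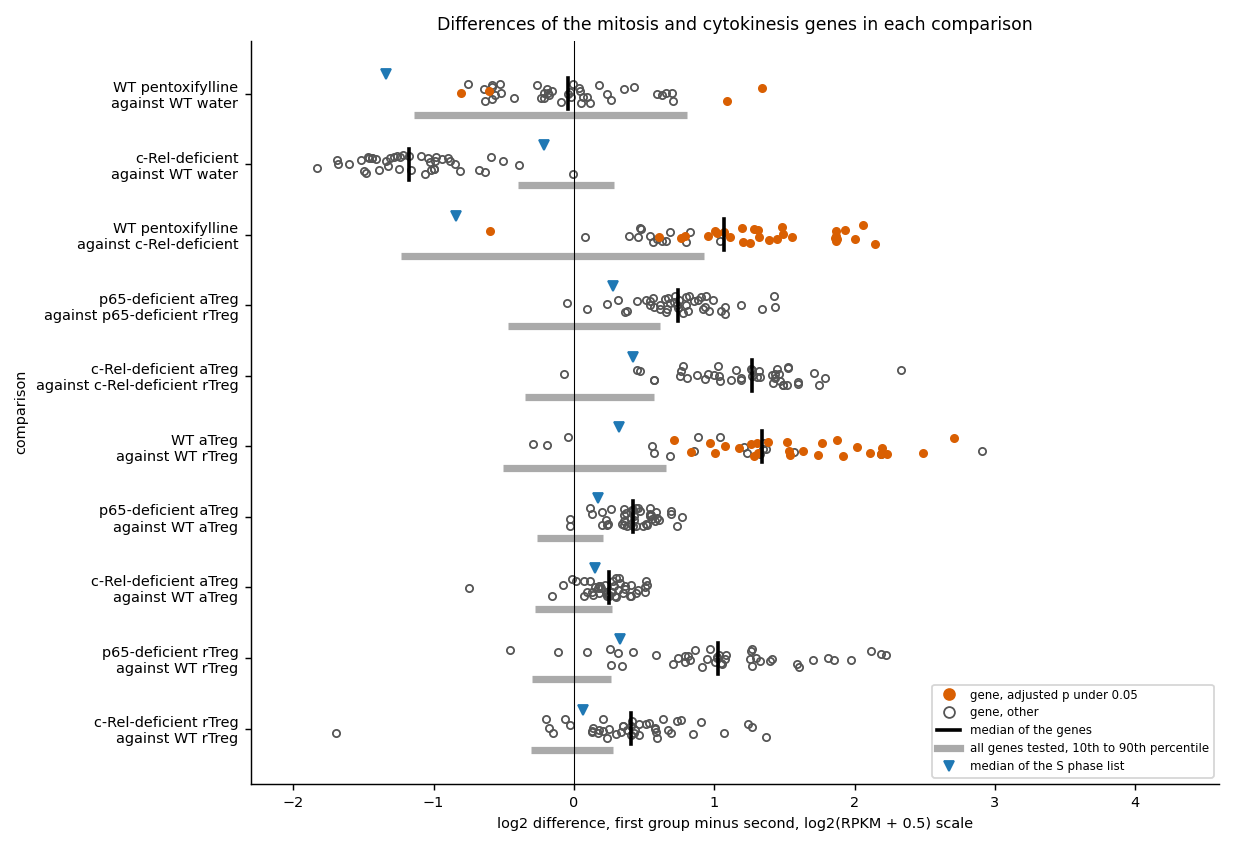
Log2 difference of every gene in 10 comparisons, first group minus second, with called genes filled, the median as a black line, the 10th to 90th percentile of all tested genes as a grey bar and the median of the DNA replication and S phase list as a triangle. Members lie left of 0 for c-Rel-deficient against water (median -1.17) and right of 0 for aTreg against rTreg, and for pentoxifylline against water they spread around 0 while the S phase median is -1.34.

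In sorted WT cells the genes were higher in aTregs than in rTregs. Of 44 members 26 rose and 0 fell, with a median of 1.34 against -0.06 over all tested genes. Limma called 7.54% of all tested genes higher and 4.68% lower, 12.2% in all. For 41 members all 3 aTreg libraries were above both rTreg libraries, which held for 19% of all genes, and for none were they all below, against 21.9% of all genes. An unadjusted p under 0.05 was reached by 41 members and 33.3% of all genes. The authors' deposited table calls 25 members higher, 7.98% of its genes being called higher, and 20 of the 25 are among the 26. Differences were above 0 for 41 members (43.5% of all genes) and below 0 for 3 (56.5%). The 3 were Bub3 (-0.29), Pttg1 (-0.19) and Ndc80 (-0.04), none of them called.

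Ccna2 was 11.7, 8.0 and 6.26 RPKM in WT aTregs, against 2.64 and 0.0900 in WT rTregs (2.71, SE 0.61, adjusted p = 0.027). Ccnb2 was 13.1, 12.0 and 7.52 against 3.39 and 1.02 (2.19, SE 0.43, adjusted p = 0.021), and Ccnb1 5.47, 4.19 and 2.93 against 1.07 and 0.436 (1.92, SE 0.35). The groups did not overlap in these cyclins, and rTreg replicate 2 was the lowest library each time. Plk1 was 4.67, 3.61 and 2.87 against 1.55 and 0.503 (1.53, SE 0.39), and Foxm1 3.56, 2.89 and 1.88 against 1.02 and 0.671 (1.26, SE 0.32), both called.

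In the passenger complex, Aurkb was 6.82, 5.55 and 5.13 RPKM in WT aTregs, against 1.53 and 0.383 in WT rTregs (2.23, SE 0.42, adjusted p = 0.018). Birc5, which encodes survivin, was 4.90, 3.96 and 3.09 against 1.57 and 0.350 (1.74, SE 0.42). In the checkpoint, Bub1b was 7.58, 6.48 and 4.77 against 2.05 and 1.00 (1.77, SE 0.35), and the kinase gene Bub1 was 1.92, 1.71 and 1.20 against 0.539 and 0.0119 (1.52, SE 0.35). For each of these 4 genes all 3 aTreg libraries were above both rTreg libraries.

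Among kinetochore genes, Nuf2 was 3.75, 3.44 and 2.23 RPKM in WT aTregs, against 1.24 and 0.0436 in WT rTregs (1.88, SE 0.49), and Spc25 2.42, 2.11 and 1.99 against 1.27 and 0.546 (0.97, SE 0.28). Kif11, the motor that separates the spindle poles, was 7.64, 6.86 and 5.21 against 2.61 and a value below 0 (2.49, SE 0.68, adjusted p = 0.042). Nusap1 was 5.67, 5.42 and 4.54 against 2.53 and 0.0106 (2.19, SE 0.61). These members of the spindle and its attachment were all called.

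In anaphase and cytokinesis, Ube2c was 11.8, 8.80 and 7.98 RPKM against 4.51 and 0.545 (2.11, SE 0.57), and Espl1, the gene of separase, which cuts cohesin, 1.55, 1.17 and 0.885 against 0.383 and 0.0216 (1.31, SE 0.36). Racgap1, a subunit of centralspindlin, was 19.2, 17.0 and 9.94 against 6.70 and 2.88 (1.64, SE 0.33), and Prc1 3.22, 2.75 and 1.81 against 0.788 and 0.551 (1.38, SE 0.30). For these 4 genes too, no rTreg library reached an aTreg library. The smallest adjusted p was that of Kif22, a chromokinesin, at 0.011 (1.28, SE 0.21).

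The proliferation markers had large differences that did not pass. Mki67 was 13.7, 16.5 and 9.44 RPKM in WT aTregs, against 5.85 and -0.278 in WT rTregs (2.91, SE 0.96, adjusted p = 0.069). It is called higher (1.70) in the authors' deposited table. Top2a was 21.7, 19.1 and 14.1 against 11.6 and 0.864 (2.19, SE 0.73, adjusted p = 0.069). Cdk1 was 5.51, 4.08 and 2.35 against 2.35 and 0.521 (1.33, SE 0.46, adjusted p = 0.076).

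The calls of this comparison rest on few libraries. WT rTreg replicate 2 was the lowest of the 13 sorted libraries for 39 of 44 members and held all 6 of the members' values below 0 RPKM, which were set to 0. Without it 9 members rose and 1 fell, with a median of 0.90. Without WT aTreg replicate 1 limma called 0 members and without replicate 2 it called 1, while without both libraries numbered 3 it called 32. The calls over all genes moved too, from 83 to 2963 genes when 1 library was left out. Within replicate number 1 the median difference was 1.1 and within number 2 it was 2.05.

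Of the other lists in WT cells, 20 of 55 other mitotic genes rose and 1 fell, among them Kif18b (2.02) and Pbk (1.89), and 11 of 44 DNA replication and S phase genes rose and 0 fell, with medians of 0.94 and 0.32. Rrm2, a subunit of ribonucleotide reductase, was 25.6, 23.2 and 13.2 RPKM against 7.32 and 2.20 (2.15, SE 0.52), and Uhrf1 rose by 1.62. Of 16 anaphase-promoting complex genes 0 rose and 2 fell, Anapc5 (-0.69) and Anapc16 (-0.69). The counts of these lists stand against 7.54% of all tested genes called higher and 4.68% called lower. Rbl2, a DREAM subunit (1.22), E2f3 (0.76) and Cdkn1a, the gene of the inhibitor p21 (1.11), rose. NK and cytotoxic cell markers summed to 60.6 to 120 RPKM in WT aTregs and 23.9 to 47.1 in WT rTregs, 6 of 7 reaching 1 RPKM, and B cell markers to 17.4 to 29.6 and 15.5 to 19.4. Their part in the result was not tested.

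In p65-deficient and c-Rel-deficient cells the same contrast had the same sign, and whether members were called depended on the fit. With all sorted groups in 1 fit and no replicate block, 0 members were called in either. With a replicate block, 4 members and 731 genes were called in p65-deficient and 25 members and 901 genes in c-Rel-deficient cells. In p65-deficient cells the median was 0.74, with 43 of 44 members above 0 and 1 below, against 42.2% and 57.8% of all genes. Limma called 3.17% of all genes (2.79% higher) but 0 members, while 14 members and 2333 genes (21.9%) had an unadjusted p under 0.05. In c-Rel-deficient cells the median was 1.27, with 43 of 44 above 0, and limma called 0 genes of 10656, while 36 members and 1494 genes (14%) had an unadjusted p under 0.05. In each genotype the aTreg libraries were above the rTreg libraries without overlap for 42 members, against 27.2% of all genes in p65-deficient and 21.9% in c-Rel-deficient cells. The p65-deficient comparison called 25 members, all higher, and 1450 genes when its 4 libraries were fitted alone. NK and cytotoxic cell markers summed to 102 to 128 RPKM in p65-deficient aTregs and 29.2 to 48.2 in p65-deficient rTregs, and to 87.7 to 194 in c-Rel-deficient aTregs and 35.2 to 46.7 in c-Rel-deficient rTregs. B cell markers summed to 25.01 to 25.8 RPKM in aTregs and 11.1 to 11.2 in rTregs of the p65-deficient genotype, and to 24.03 to 24.4 in aTregs and 11.4 to 18.1 in rTregs of the c-Rel-deficient genotype. Their part in the results was not tested.

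Mki67 was 13.9 and 16.9 RPKM in p65-deficient aTregs, against 7.39 and 7.84 in p65-deficient rTregs, and 20.3 and 9.34 in c-Rel-deficient aTregs, against 6.81 and 0.605 in c-Rel-deficient rTregs. Ccnb1 was 6.87 and 5.61 against 1.69 and 2.32 in p65-deficient cells (1.43, SE 0.39, adjusted p = 0.072), and 6.86 and 3.53 against 2.39 and 1.14 in c-Rel-deficient cells (1.32, SE 0.39, adjusted p = 0.21). In c-Rel-deficient aTregs replicate 2 was above replicate 3 for 44 of 44 members and was the highest of the 13 sorted libraries for 30. Cd44, the gene of the sort marker, was 61.2 and 32.9 RPKM in those 2 libraries. In order of replicate it was 49.4, 45.2 and 26.4 in WT aTregs, 19.4 and 10.9 in WT rTregs, and 18.6 and 10.2 in c-Rel-deficient rTregs. In p65-deficient cells it was 34.5 and 32.8 in aTregs and 14.8 and 6.52 in rTregs, where replicate 2 was the higher for most members. Its part in the result was not tested.

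Aurkb was 8.87 and 8.68 RPKM in p65-deficient aTregs, against 3.36 and 3.80 in p65-deficient rTregs, and 8.86 and 3.67 in c-Rel-deficient aTregs, against 2.68 and 0.974 in c-Rel-deficient rTregs. Bub1b was 8.34 and 8.85 against 3.82 and 4.67 in p65-deficient cells, and 8.98 and 5.16 against 3.83 and 1.49 in c-Rel-deficient cells. Plk1 was 5.02 and 4.74 against 2.00 and 2.66 in p65-deficient cells, and 6.60 and 3.05 against 2.08 and 0.843 in c-Rel-deficient cells. No library of an rTreg group reached the lowest aTreg library of its genotype in these 3 genes.

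The difference between subsets was compared between genotypes as an interaction. Against WT, the subset difference of the members had a median of -0.61 in p65-deficient and -0.11 in c-Rel-deficient cells. Limma called 0 of 10656 genes in each, with 0 members and 237 genes (2.22%) under an unadjusted p of 0.05 for p65 and 0 members and 497 genes (4.66%) for c-Rel. The largest member value was that of Mki67 for p65, -1.94. Without WT rTreg replicate 2 the medians were -0.08 for p65 and 0.40 for c-Rel.

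**Figure D5:**
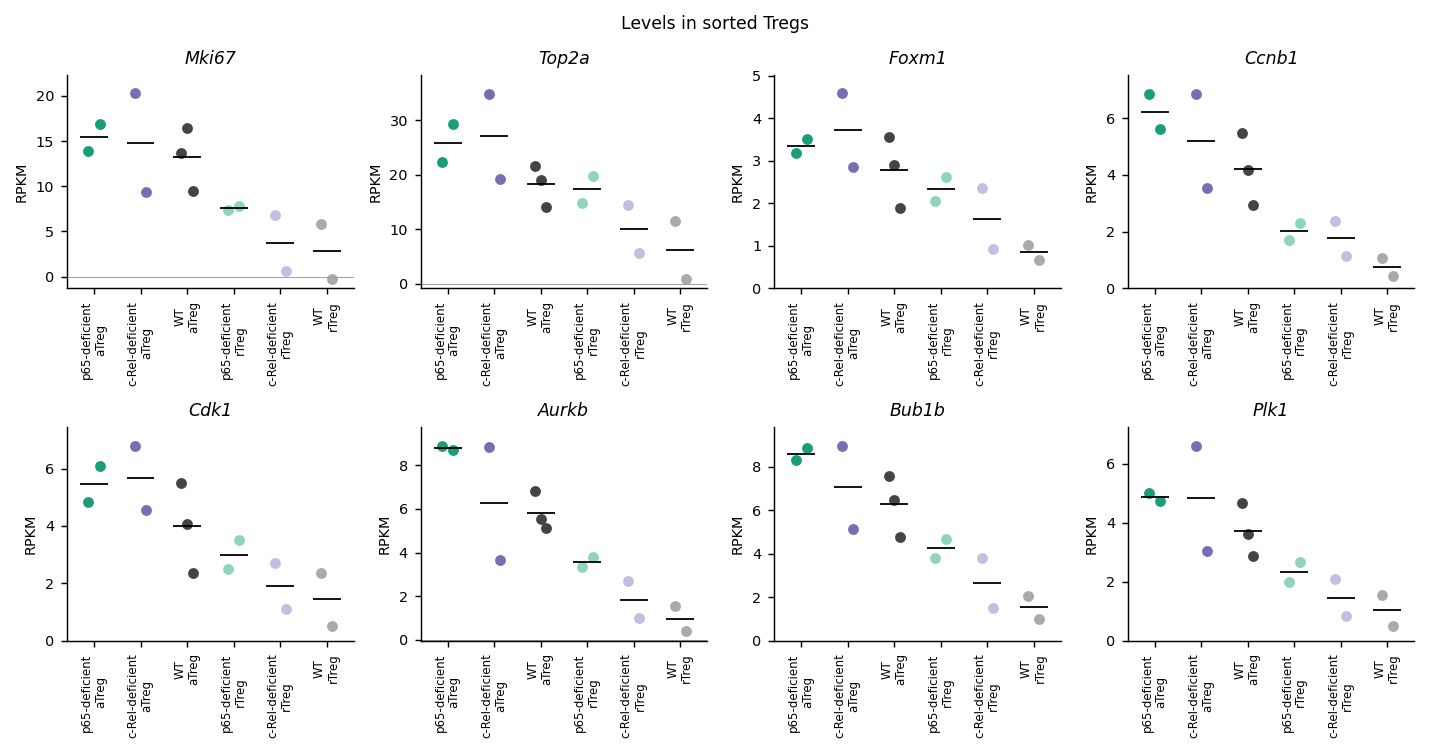
RPKM of 8 genes in the 13 sorted libraries, with points for libraries and lines for group means, from left to right p65-deficient, c-Rel-deficient and WT aTregs, then p65-deficient, c-Rel-deficient and WT rTregs. WT rTregs have the lowest mean in all 8 genes, and the libraries of a c-Rel-deficient group lie far apart in each panel. The median log2 gap between replicates 1 and 2 over the members was 0.96 in WT rTregs and 0.89 in c-Rel-deficient rTregs. Between replicates 2 and 3 of c-Rel-deficient aTregs it was 0.78. WT rTreg replicate 2 was the lowest of the 13 libraries for 39 of 44 members.

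In sorted cells limma called no gene for the loss of either subunit. Set against WT rTregs, p65-deficient rTregs had a median of 1.03 over the members, with 42 of 44 above 0 and 37 whose libraries did not overlap in the higher direction, against 13.9% of all genes. Limma called 0 genes (31 members and 726 genes, 6.81%, under an unadjusted p of 0.05), and the authors' deposited table calls Racgap1 alone among the members (1.56, adjusted p = 0.029), with 0.0337% of its genes called higher. Racgap1 was 11.4 and 11.8 RPKM in p65-deficient and 6.70 and 2.88 in WT rTregs. Aurkb was 3.36 and 3.80 against 1.53 and 0.383, and Ccnb2 6.77 and 6.84 against 3.39 and 1.02. The p65-deficient pair was above both WT libraries in these genes. The median was 0.55 without WT rTreg replicate 2 and 1.5 without replicate 1. Erythroid markers, 4 of 5 listed of which reached 1 RPKM in some sorted library, summed to 34.9 to 40.9 RPKM in p65-deficient rTregs. In WT rTregs they summed to 20.8 in replicate 1 and 0.213 in replicate 2, the lowest sorted library for 39 of 44 members. Their part in the result was not tested.

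In c-Rel-deficient against WT rTregs the median was 0.41, and it was -0.15 without WT rTreg replicate 2. Erythroid markers summed to 26.9 to 81.9 RPKM in c-Rel-deficient rTregs, and to 20.8 and 0.213 in WT rTreg replicates 1 and 2. Their part in the result was not tested. Limma called 0 genes (3 members and 775 genes, 7.27%, under an unadjusted p of 0.05), and 3 members, Ccnb1, Kif22 and Kif23, did not overlap in the higher direction, against 12.3% of all genes. Ccnb1 was 2.39 and 1.14 RPKM in c-Rel-deficient and 1.07 and 0.436 in WT rTregs (0.85, SE 0.39, adjusted p = 0.68). No member (0 of 44) is called in the authors' deposited table, where 0.0135% of genes are called in each direction.

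For p65-deficient aTregs the median was 0.42, with 42 of 44 above 0 and 30 members not overlapping in the higher direction, against 9.89% of all genes. Limma called 0 genes, with 1 member and 365 genes (3.43%) under an unadjusted p of 0.05. Nusap1 had the largest value (0.77), at 8.89 and 9.58 RPKM in p65-deficient and 5.67, 5.42 and 4.54 in WT aTregs. For c-Rel-deficient aTregs the median was 0.25, with 40 of 44 above 0, and -0.12 without c-Rel-deficient aTreg replicate 2. Limma called 0 genes, with 0 members and 717 genes (6.73%) under an unadjusted p of 0.05. The authors' deposited table calls 0 members in either comparison, with 0.0675% and 0.128% of its genes higher and lower for p65 and 0.398% and 0.121% for c-Rel. Erythroid markers summed to 32.8 and 26.0 RPKM in p65-deficient aTregs and 49.0 and 21.5 in c-Rel-deficient aTregs. In WT aTregs they summed to 18.7, 0.398 and 30.7, in order of replicate, and their part in the results was not tested.

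Members also differed in how far they followed the rest. Bub3 had the highest mean level in both sets and ranged only from 54.4 to 89.8 RPKM over the sorted libraries. Ndc80 ranged from 4.59 to 9.38 there and Cenpa from 13.8 to 33.5. At the other end Anln, an actin-binding scaffold of the cleavage furrow, had the lowest mean level in the sorted set, with 1.46 RPKM as its highest value.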

How the data were processed

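RNA-seq values of 19 libraries in 9 groups were taken from the 2 expression tables deposited by the authors. Both hold RPKM values per gene, per the file headers, in text with decimal commas. The submitters' processing notes name STAR, DESeq2 1.10.1 and the mm10 build. The table of sorted cells appears to have been adjusted in a step its headers leave out: 2.53% of its deposited RPKM values are below 0, down to -30.7, and 15883 exactly tied values occur between libraries of the same replicate number and 0 between libraries of different numbers. Its limma p-values therefore rest on values that may already be adjusted. The authors' deposited tables also give log2 fold changes and p-values, which were adjusted here by the Benjamini-Hochberg method. Genes with a date in place of a symbol, 20 and 21 per table, were left out.

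Negative values were set to 0. The tests took genes that 2 or more libraries of a set held at 1 RPKM or above, on log2(RPKM + 0.5) with limma 3.58.1 in R 4.3.3 (moderated statistics with a trend), all groups of a set in 1 fit, and adjusted over all tested genes. The sets were fitted separately. Sorting genes, markers and values were handled in Python 3.11.15, pandas 2.3.3 and numpy 2.4.6, with figures in matplotlib 3.10.9. The fit was tested on simulated data with known changes. A second sort marker and some marker genes are not reported here. Promoters are RefSeq windows and coordinates are those of GRCm38.

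The members and lists were chosen with earlier results of these data known. The planned rule for named genes took Mki67, Top2a, Foxm1, Ccnb1, Cdk1, Aurkb, Bub1b and Plk1 as values per library, up to 2 called members per role group by size of difference, and up to 2 called genes of each other list. Those 8 are plotted for every library, and the text gives their values in only some of the comparisons. Members named for running against the others, such as Pttg1, Nuf2 and Spc25, were chosen after their values were seen. Alternatives were the pseudocount, the filter, median-of-ratios scaling, a fit of only the groups compared, a replicate block, the authors' test (added after seeing the data) and leaving out libraries. Precision is limited by 2 or 3 libraries per group. The correlation of deviations between libraries of the same number ran from -0.07 to 0.40 over pairs of groups in the stimulated set and from -0.38 to 0.44 in the sorted set, and the labels do not say what a number marks, so the numbers were kept out of the model and used as a block in an alternative.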

Additional observations from a re-analysis of the deposited data

Results flagged for a closer look

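For 4 genes the difference between c-Rel-deficient and WT libraries ran one way in every library of one setting and the opposite way in every library of another. The difference between the settings was not tested, since the 2 sets were normalized separately. Ccnb1 had a log2 difference of -1.47 in stimulated Tregs and 0.85 in rTregs. Kif22 had -1.0 and 0.58 in the same settings. Kif23 had -1.52 and 0.76. Ndc80 had -0.39 in stimulated Tregs and 0.30 in aTregs. In limma none of these 8 values passed the threshold. Groups did not overlap in the higher direction for 3 of 44 members and 12.3% of all tested genes in c-Rel-deficient rTregs. In c-Rel-deficient aTregs this held for 1 of 44 members and 11.8% of all tested genes. In the lower direction it held for 42 of 43 members and 16.3% of all tested genes after stimulation. The rTreg median of the members was 0.41, and -0.15 without WT rTreg replicate 2.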

How the results depend on the processing

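No member called in limma changed direction under any alternative run. Over all alternatives, called members kept the call 214 times and lost it 120 times for WT aTreg against rTreg, 249 and 69 times for pentoxifylline against c-Rel-deficient, and 36 and 8 times for pentoxifylline against water. Fitting only the groups compared gave 16 called members for pentoxifylline against water (4271 genes in all), 4 for WT aTreg against rTreg (208 genes in all) and 25 for the p65-deficient subsets (1450 genes). Without a filter 16 members were called for pentoxifylline against c-Rel-deficient and 15 for WT aTreg against rTreg, and with a pseudocount of 0.1 the median of that contrast was 1.91. The authors' deposited test called 32 members for c-Rel-deficient against water (306 genes) and 1 for p65-deficient against WT rTregs (5 genes). It called 77 genes for c-Rel-deficient and 29 for p65-deficient against WT aTregs, and 4 for c-Rel-deficient against WT rTregs. The no-filter fit called 40 genes for c-Rel-deficient against WT aTregs. For the 16 and 15 members called without a filter, the number of all genes called is not given. The cause of these moves was not tested.

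In the sorted set, libraries of one replicate number share tied values and neighbouring library codes, while the labels do not say what the number marks. With a replicate block, 38 members were called for WT aTreg against rTreg (2077 genes), 4 for the p65-deficient subsets (731 genes) and 25 for the c-Rel-deficient subsets (901 genes). The block gave 5 called members for pentoxifylline against water, where the number of all genes called is not given. It gave 44 called genes for c-Rel-deficient against WT aTregs. Leaving out both libraries numbered 3 gave 3 called members in the p65-deficient subset contrast, where the number of all genes called is not given. In the c-Rel-deficient subset contrast that fit left replicate 2 as the only aTreg library. That library was the highest of the sorted libraries for 30 of 44 members, so calls of that contrast are not given.

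Leaving out 1 library gave 2 to 3 called members for pentoxifylline against water (median -0.14 to -0.04), 0 to 38 for c-Rel-deficient against water (-1.80 to -0.61), 8 to 42 for pentoxifylline against c-Rel-deficient (0.56 to 1.59) and 0 to 33 for WT aTreg against rTreg (0.90 to 1.90). It gave 0 members in each of the other contrasts. Their medians ran from 0.59 to 0.85 for the p65-deficient and 0.81 to 1.66 for the c-Rel-deficient subsets, 0.55 to 1.5 for p65-deficient and -0.15 to 0.91 for c-Rel-deficient against WT rTregs, and 0.30 to 0.55 and -0.12 to 0.65 for the same genotypes against WT aTregs. The interactions ran from -1.08 to -0.083 for p65 and -0.60 to 0.40 for c-Rel. Depth of the sorted libraries is unknown, so no counting limit can be given for their low values.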

Other observations

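Pttg1, the gene of securin (chromosome 11, 43420250 to 43426251, minus strand, GRCm38), differed between the libraries of each c-Rel-deficient group. It was 26.9 and 9.34 RPKM in stimulated cells, 20.04 and 9.22 in aTregs and 2.67 and 21.6 in rTregs, while the WT and p65-deficient sorted libraries lay between 17.1 and 36.5. In each of these 3 pairs the library with less Pttg1 had more Rel: 24.96 against 2.44 RPKM, 3.01 against 1.56, and 5.37 against 1.39. This was noticed after the values were seen and was not tested.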
